A study of Mus musculus with 9 samples.

Results

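Oxidative phosphorylation is carried out in the inner mitochondrial membrane by 5 protein complexes. Complex I oxidises NADH, complex II oxidises succinate, complex III passes electrons from ubiquinol to cytochrome c, and complex IV reduces oxygen. Complex V, the ATP synthase, uses the proton gradient that complexes I, III and IV build. Most subunits are encoded by nuclear genes and imported, the rest by mitochondrial DNA. Hippocampal neurons spend much of this ATP on ion pumping and synaptic transmission, while astrocytes are known for a high rate of glycolysis. The nuclear subunit genes were taken as the rows of the deposited table whose names begin with Nduf followed by a, b, c, s or v and a digit, with Uqcr, with Cox and a digit from 4 to 8, or with Atp5, together with Sdha, Sdhb, Sdhc and Sdhd. Of 87 such names, 3 annotated as pseudogenes by the suffix -ps were left out, and 1 had a mean below 10. The remaining 83 genes, of 18275 rows in the table, comprised 39 named for complex I, 4 for complex II, 8 for complex III, 15 for complex IV and 17 for complex V. All 83 had a gene in Gencode vM39. Ndufa4 keeps a complex I name although its protein is now assigned to complex IV, and Ndufb4c is annotated as a transcribed processed pseudogene.

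RNA was taken from the dissected hippocampus of 4 Nestin;BrafKE/+ mice and 5 Braf+/+ littermates, adult males labelled C57BL/6N, with 1 library per animal. Nestin;BrafKE/+ mice carry 1 Braf allele with the K499E substitution, which encodes a more active kinase of the RAS/ERK pathway and is expressed from the Braf locus after Nestin-Cre has removed a floxed wild-type cassette. Nestin-Cre acts in neural stem cells, so the neurons, astrocytes and oligodendrocytes derived from them carry the allele, and cells of other lineages need not. Whether the Braf+/+ littermates carried Nestin-Cre is not given in the labels. The comparison asks which transcripts of the tissue differ when this allele is expressed. In such bulk tissue, fewer cells of a type and less RNA per cell cannot be told apart. The library names in the labels carry 4 prefixes, which were grouped here into 3 series. The prefixes that are plain numbers were joined in series A, a choice that the labels do not give. Series A comprises controls 1, 2 and 3 with mutant 1, series B comprises control 4 with mutants 2 and 3, and series C comprises control 5 with mutant 4, where the numbers are the replicate numbers. The values are a signal in normalised counts, and library totals ran from 19551300 to 20091500. The study adjusted the values for batches that are not named, and the depth behind a value is unknown. Braf itself ran from 2144 to 2469 in Nestin;BrafKE/+ and from 2635 to 3030.0 in Braf+/+ libraries.

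The subunit genes are among the well expressed genes of the tissue. Their summed signal was 0.892% to 0.994% of a library's total, against 6.55% to 7.01% for the 13 subunits encoded by mitochondrial DNA. In Nestin;BrafKE/+ libraries it was 0.959% ± 0.019 (SD, n = 4), in Braf+/+ libraries 0.927% ± 0.043 (SD, n = 5), and the ranges of the groups overlapped. To compare levels between genes, the signal was divided by the length of the canonical transcript in kb. On that scale Atp5b, the catalytic β subunit of ATP synthase, was highest at 10215 ± 474 (SD, n = 9). Cox4i1, the ubiquitous form of subunit 4 of complex IV, followed at 8783 ± 617. The difference between these neighbours exceeded either SD. Cox8a at 8168 ± 704 and Cox6a1 at 7787 ± 662, both further subunits of complex IV, came next, and each of these 3 complex IV genes differed from its neighbour by less than its SD. This order holds for the canonical transcript only. With the longest transcript Atp5b was still highest at 9130, but Cox6a1 (7172) and Cox8a (6562) were above Cox4i1 (4074), and with all exons merged Cox6a1 (6245) and Cox8a (5164) were above Atp5b (4251) and Cox4i1 (2187). With the canonical transcript the median signal per kb was 1176 in complex I, 842 in complex II, 1568 in complex III, 2426 in complex IV and 2106 in complex V.

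**Figure D1:**
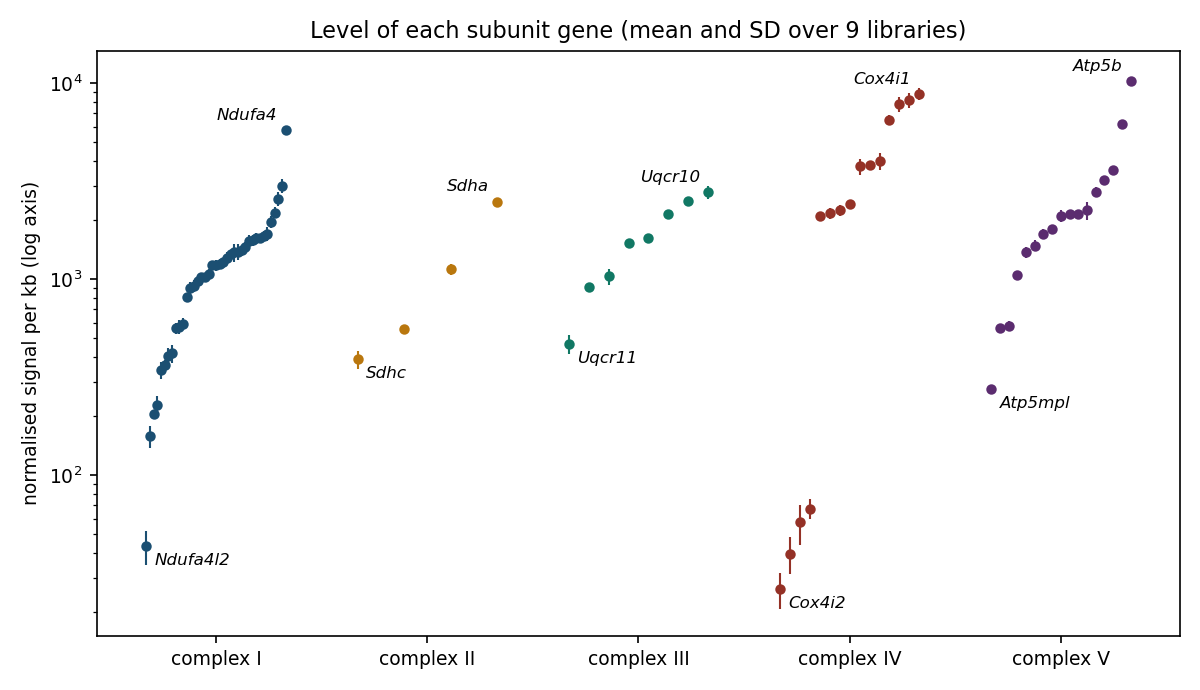
Normalised signal per kb of canonical transcript (log axis) for each of the 83 subunit genes, arranged by complex and ordered by level, with points for the mean and bars for the SD over 9 libraries. The named genes are the lowest and highest of each complex, and 4 genes of complex IV and Ndufa4l2 lie below 100 while all others lie above it.

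The lowest levels belonged to forms of complex IV subunits that are best known from other tissues. Per kb, Cox4i2 reached 26.2 ± 5.4, Cox7a1 39.8 ± 8.3, Cox6b2 57.4 ± 13.3 and Cox6a2 67.4 ± 8.0 (SD, n = 9). Before division by length, Cox7a1 at a mean of 17.5, Cox4i2 at 19.9 and Cox6b2 at 34.4 lay just inside the minimum mean of 10. Just outside it lay Cox7b2 at 3.7. Ndufa4l2, a hypoxia-inducible paralogue of Ndufa4, stood among them at 43.3 ± 8.5 per kb. These levels depend on the transcript taken as canonical, since the share of Ndufa4l2 within its pair with Ndufa4 was 0.781% in Nestin;BrafKE/+ with the canonical transcript, 6.89% with the longest transcript and 9.76% with all exons merged.

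Promoters of such genes are known to carry sites for NRF1, for ETS factors such as GABP and for YY1, which helps to coordinate nuclear and mitochondrial gene expression. RefSeq promoter sequence on GRCm38.p6, from 250 bases before to 50 bases after the start site, was matched by symbol for 67 of the 83 genes. Both strands were searched for GCGCNTGCG (NRF1), CCGGAAG (ETS) and AAGATGGCG (YY1), none of which contains another. The background was 27025 genes with listed promoters, not limited to genes expressed in the hippocampus. In 1 or more listed promoters, the NRF1 letters were found for 35.8% of the subunit genes against 7.12% of the background. The ETS letters were found for 25.4% against 9.93%, and the YY1 letters for 10.4% against 1.64%. By complex, the NRF1 letters were found for 9 of 33 matched genes of complex I, 2 of 3 of complex II, 3 of 5 of complex III, 1 of 11 of complex IV and 9 of 15 of complex V. For the ETS letters the counts were 4 of 33, 2 of 3, 2 of 5, 3 of 11 and 6 of 15 in complexes I to V. The YY1 letters were found for 5 of 33 complex I genes and 2 of 15 complex V genes, and for no gene of complexes II, III or IV that was matched. A match is a description and not a binding site. To show what the 3 motifs look like in place, 4 promoters are printed 5′ to 3′ on the strand of the gene with matches in capitals. They belong to genes that take up the comparison of genotypes below. Ndufa9 (chr6:126849095-126849394, minus strand) holds the YY1 letters 29 bases after the start site, Ndufa5 (chr6:24527641-24527940, minus strand) the NRF1 letters 25 bases before it, Cox6b1 (chr7:30626065-30626364, minus strand) the ETS letters 28 bases before it, and Cox7a2 (chr9:79759804-79760103, minus strand) none of them.
Ndufa9: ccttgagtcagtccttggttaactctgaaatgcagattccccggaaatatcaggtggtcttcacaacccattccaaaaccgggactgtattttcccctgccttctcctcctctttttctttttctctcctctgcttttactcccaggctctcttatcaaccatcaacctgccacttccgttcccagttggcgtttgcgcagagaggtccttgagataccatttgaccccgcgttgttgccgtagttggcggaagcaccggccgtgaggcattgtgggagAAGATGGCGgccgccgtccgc
Ndufa5: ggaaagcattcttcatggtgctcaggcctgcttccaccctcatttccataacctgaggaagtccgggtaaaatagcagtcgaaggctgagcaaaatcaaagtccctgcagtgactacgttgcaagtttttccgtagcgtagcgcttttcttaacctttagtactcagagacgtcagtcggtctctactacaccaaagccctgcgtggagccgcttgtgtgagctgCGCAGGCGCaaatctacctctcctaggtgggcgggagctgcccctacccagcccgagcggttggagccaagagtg
Cox6b1: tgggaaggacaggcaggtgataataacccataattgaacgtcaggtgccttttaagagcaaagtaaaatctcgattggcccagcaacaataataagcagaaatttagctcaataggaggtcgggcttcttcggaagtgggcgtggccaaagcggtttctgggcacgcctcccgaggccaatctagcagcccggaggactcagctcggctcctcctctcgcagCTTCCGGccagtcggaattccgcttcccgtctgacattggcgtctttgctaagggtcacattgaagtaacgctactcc
Cox7a2: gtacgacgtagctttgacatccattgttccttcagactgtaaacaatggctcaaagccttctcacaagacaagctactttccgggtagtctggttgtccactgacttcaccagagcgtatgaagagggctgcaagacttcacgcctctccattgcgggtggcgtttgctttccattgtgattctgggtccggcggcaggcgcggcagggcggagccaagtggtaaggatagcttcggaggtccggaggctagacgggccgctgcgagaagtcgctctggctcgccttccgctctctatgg

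No subunit gene passed the test between genotypes. Of the 83 genes, 0 had an adjusted p under 0.05 by limma with Benjamini-Hochberg adjustment over all 16196 genes tested, where 2.88% of all genes passed (1.52% higher and 1.36% lower). At an unadjusted p under 0.05 there were 8, all higher in Nestin;BrafKE/+, which is 9.64% of the 83 against 18.5% of all genes (8.86% in the higher direction). Groups were fully separate for 7 genes, or 8.43% against 15.7% of all genes, with 6 higher (7.62% of all genes) and 1 lower (8.13% of all genes). On the log2 scale the fold changes, Nestin;BrafKE/+ over Braf+/+, ran from -0.090 for Ndufs1 to 0.52 for Cox4i2, and Cox4i2 alone exceeded 0.25 in size. The 95% interval lay within 0.5 of 0 for 79 of 83 genes. In simulated data of this design, a change of 0.25 was recovered for 0% and a change of 0.5 for 39.5% of changed genes. The 200 changed genes there were drawn from all genes tested, whose median SE was 0.105 against 0.068 for the subunit genes. The simulation therefore does not give the recovery of such changes in the subunit genes. All differences but that of Cox4i2 were below 0.25. Without the term for the series of libraries, 4 of the 83 genes passed (Ndufa9, Ndufa5, Cox7a2 and Sdhc, all higher), which is 4.82% against 14.0% of all genes in that fit.

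**Figure D2:**
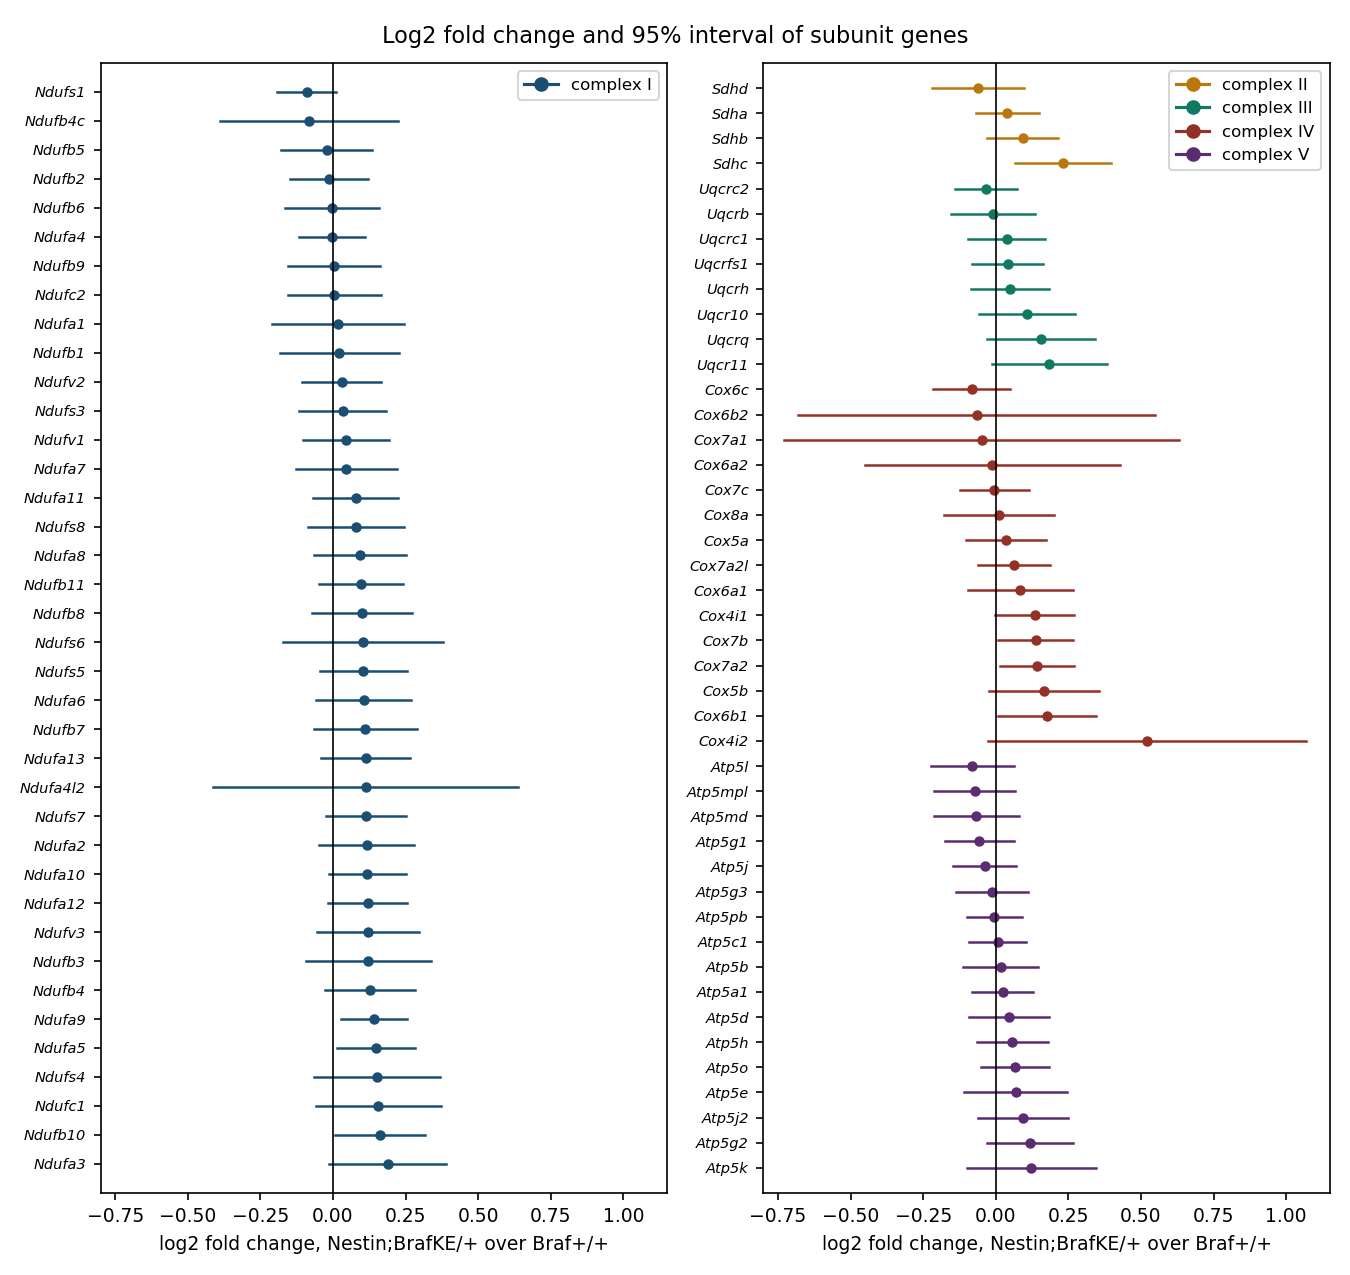
Log2 fold change of Nestin;BrafKE/+ (n = 4) over Braf+/+ (n = 5) for 82 of the 83 subunit genes (points) with the 95% interval from limma (lines), ordered within each complex and coloured by complex. Most points of complex I lie to the right of 0 and those of complex V lie on both sides, and all values but that of Cox4i2 lie between -0.090 and 0.23.

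The direction of the small differences was uneven between the complexes. The median log2 fold change was 0.066 over the 83 genes, with 62 above 0 (74.7%), while over all genes tested it was 0.0003, with 50.1% above 0. By complex the median was 0.10 for complex I (33 of 39 above 0), 0.066 for complex II (3 of 4), 0.044 for complex III (6 of 8), 0.063 for complex IV (10 of 15) and 0.016 for complex V (10 of 17). These medians are descriptions with no test, and neither was the difference between complexes tested. Without Braf+/+ replicate 4 the median over all subunit genes was 0.019, that of complex I 0.040 and that of complex V -0.010. Without Nestin;BrafKE/+ replicate 4 or Braf+/+ replicate 5, the pair that makes up series C, the complex IV median was 0.13, and without Nestin;BrafKE/+ replicate 1 it was 0.12.

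Complex I is the entry point for electrons from NADH. Its 7 nuclear core subunits, which hold the flavin and the iron-sulphur clusters, had a median log2 fold change of 0.044, and 6 of the 7 were above 0. Of the other 32 genes named for the complex 27 were above 0, with a median of 0.10.

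Ndufa9 encodes an accessory subunit near the ubiquinone site (chromosome 6, ENSMUSG00000000399). Its signal was 1816, 1883, 1899 and 1818 in Nestin;BrafKE/+ replicates 1 to 4, and 1727, 1644, 1701, 1615 and 1714 in Braf+/+ replicates 1 to 5. Every Nestin;BrafKE/+ value was above every Braf+/+ value. The log2 fold change was 0.14 (SE 0.05), with differences of 0.10, 0.23 and 0.08 within series A, B and C, and limma's adjusted p of 0.173 did not pass.

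Ndufa5, an accessory subunit of the matrix arm, also had groups that did not overlap. The Nestin;BrafKE/+ libraries gave 1209, 1165, 1199 and 1212, and the Braf+/+ libraries 1014, 1056, 1159.8, 1106 and 1066. Braf+/+ replicate 3 came close to the lowest mutant value. Its log2 fold change was 0.15 (SE 0.06), with limma's adjusted p at 0.227.

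Ndufs1, the largest core subunit and a carrier of iron-sulphur clusters, was the one gene with groups separated in the other direction. It stood at 2813, 2749.8, 2831 and 2901 in Nestin;BrafKE/+ and at 2996, 3022, 3002, 3078 and 2925 in Braf+/+ libraries. All mutant values were below all control values, but by a small margin. The log2 fold change was -0.090 (SE 0.046), the differences within series were -0.096, -0.14 and -0.012, and limma's adjusted p was 0.332.

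Ndufa3, an accessory subunit of the membrane arm, had the highest log2 fold change of complex I at 0.19 (SE 0.09, limma adjusted p = 0.307). Its values were 709.8, 750.0, 838 and 724 in Nestin;BrafKE/+ and 643, 629, 758, 599 and 689.6 in Braf+/+ libraries. The groups overlapped through Braf+/+ replicate 3, and the difference within series was 0.40 in series B and 0.07 in both others.

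Ndufb2 lies on the opposite strand to Braf and shares 870 exon bases with it in Gencode vM39 on GRCm39, so it was examined beside the mutated gene. It encodes a small accessory subunit of the membrane arm. Ndufb2 had 849, 871, 910.5 and 927 in Nestin;BrafKE/+ and 899, 911, 924, 896 and 862 in Braf+/+ libraries. Its log2 fold change was -0.015 (SE 0.061, limma adjusted p = 0.926), whereas Braf, which is transcribed from the other strand, fell by 0.30 on the log2 scale (SE 0.07, limma adjusted p = 0.0378). The libraries were made with a stranded kit. Whether the quantification used strand is not given in the sources used here. Of the 83 genes, 55 share exon bases with an annotated gene on the opposite strand and 8 with one on the same strand.

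Ndufa4 and Ndufa4l2 form a pair in which Ndufa4 supplies nearly all the signal. Ndufa4 ran from 2972 to 3093 in Nestin;BrafKE/+ and from 2928 to 3246 in Braf+/+ libraries, with a log2 fold change of -0.003 (SE 0.051) and a 95% interval from -0.12 to 0.11. Ndufa4l2 ran from 37.8 to 56.9 and from 32.8 to 53.8, with a log2 fold change of 0.11 (SE 0.24). Neither passed the limma test (adjusted p = 0.980 and 0.841).

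Complex II, succinate dehydrogenase, is the only complex whose subunits are all nuclear. Its members differed in sign. Sdhc, a membrane anchor, had the lowest adjusted p of the 83 genes (0.134 by limma) and the highest log2 fold change among those with a mean of at least 50, 0.23 (SE 0.07, 95% interval from 0.065 to 0.40). Its signal was 1452, 1318, 1429.6 and 1257 in Nestin;BrafKE/+ and 1098, 1087, 1227, 1143 and 1258 in Braf+/+ libraries. The groups overlapped within series C, where Nestin;BrafKE/+ replicate 4 and Braf+/+ replicate 5 had nearly the same value. The difference was 0.35 in series A, 0.26 in series B and -0.001 in series C, and the log2 fold change was 0.31 without either library of series C. Sdhd, the other anchor, stood at 1299, 1352, 1514 and 1372 against 1480.5, 1368, 1574, 1347 and 1455, a log2 fold change of -0.062 (SE 0.072, limma adjusted p = 0.691). For Sdha, which binds the flavin and succinate, it was 0.039 (SE 0.049), and for Sdhb, the iron-sulphur subunit, 0.092 (SE 0.055).

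Complex III had 8 members with log2 fold changes from -0.034 to 0.18. The highest was Uqcr11, a small subunit, with 1427, 1316, 1509.5 and 1238 in Nestin;BrafKE/+ and 1113, 1133, 1328, 1137 and 1333 in Braf+/+ libraries. Its difference was 0.26 in series A and 0.31 in series B but -0.11 in series C, and limma's adjusted p was 0.308. The lowest was Uqcrc2, a core protein, at -0.034 (SE 0.049, adjusted p = 0.756). Its partner Uqcrc1 had 0.038 (SE 0.060), and Uqcrfs1, the Rieske iron-sulphur protein, 0.040 (SE 0.056).

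Complex IV, cytochrome c oxidase, held 3 of the genes with separate groups, or 20% of its 15 genes against 15.7% of all genes. Cox4i1 was at 6969, 7479.6, 7503 and 6967 in Nestin;BrafKE/+ and at 6148, 6928, 6935, 6129 and 6833 in Braf+/+ libraries. The lowest mutant value lay only just above the highest control value, and the log2 fold change of 0.13 (SE 0.06, limma adjusted p = 0.277) came from 0.29 within series B against 0.066 and 0.028 within A and C. Cox7a2, the widely expressed form of subunit 7a, was at 1880.4, 1810.0, 1983 and 1772 against 1633, 1691, 1708, 1624 and 1770.5. Here too the groups touched in series C, with a difference there of 0.001, and the log2 fold change was 0.14 (SE 0.06, adjusted p = 0.223).

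Cox4i2, the form of subunit 4 known from lung and from hypoxia, had the largest log2 fold change of the 83 genes and one of the lowest signals. It was at 25.1, 22.8, 23.96 and 23.9 in Nestin;BrafKE/+ and at 18.9, 17.0, 13.9, 17.1 and 16.0 in Braf+/+ libraries. The groups were clearly apart, and the difference had one sign within the series (0.58, 0.43 and 0.55). The log2 fold change was 0.52 (SE 0.25) with a 95% interval from -0.027 to 1.07, and limma's adjusted p was 0.297. At such levels the whole numbers behind the signal are few, and the mean of 16.6 ± 1.8 (SD, n = 5) in Braf+/+ compares with 23.96 ± 0.92 (SD, n = 4) in Nestin;BrafKE/+.

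Cox6b1, the common form of subunit 6b, was at 2572, 2781, 2753 and 2469 against 2208, 2274, 2602, 2129 and 2501, a log2 fold change of 0.18 (SE 0.08, limma adjusted p = 0.247). The groups overlapped in series C and through Braf+/+ replicate 3. Cox7b, a small subunit encoded on the X chromosome, was at 2449, 2445, 2447 and 2254 against 2085, 2139, 2269, 2095 and 2319, with 0.14 (SE 0.06, adjusted p = 0.242). Nestin;BrafKE/+ replicate 4 stood apart from the 3 other mutant libraries for this gene. At the other end Cox6c, also a small subunit, had -0.083 (SE 0.060, adjusted p = 0.506).

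**Figure D3:**
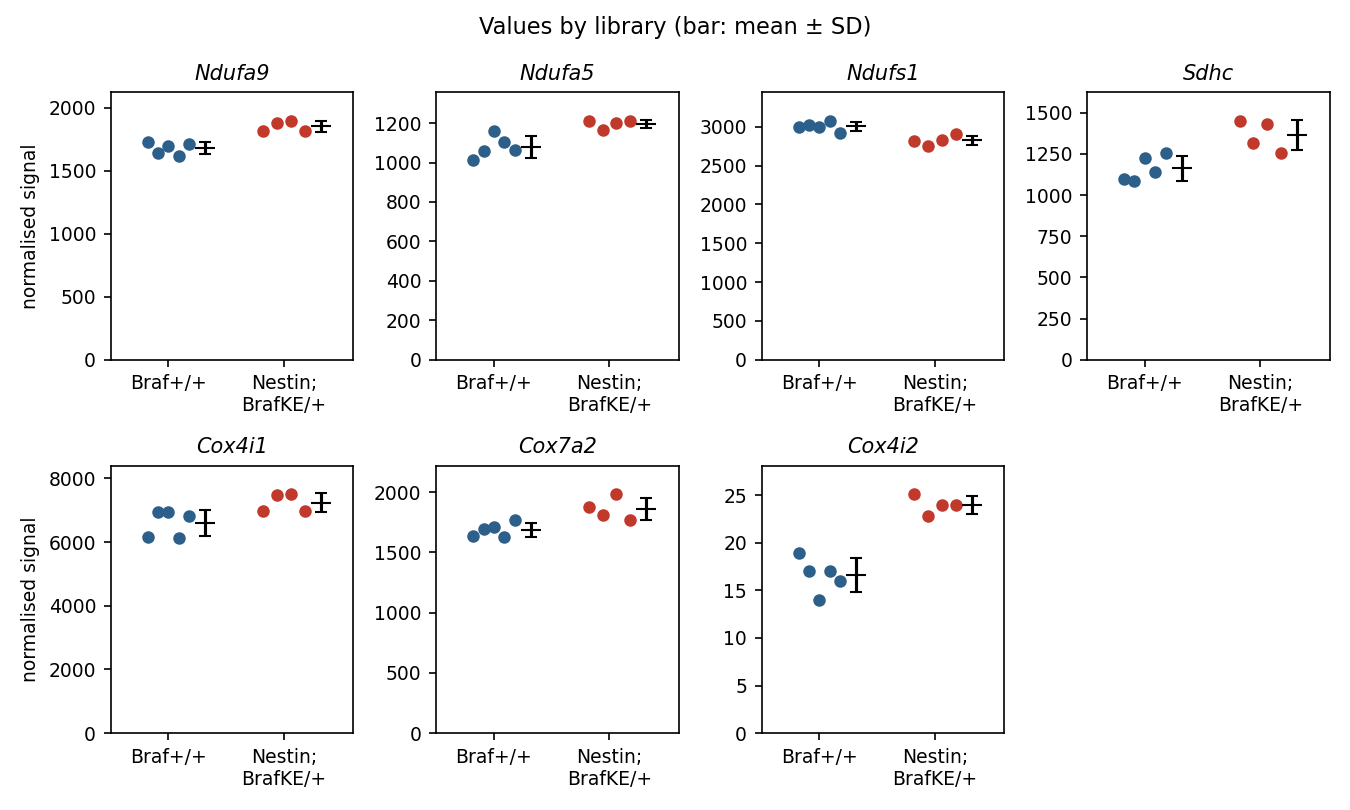
Normalised signal by library (points) for 6 of the 7 genes whose groups did not overlap and for Sdhc, with Braf+/+ (n = 5) in blue, Nestin;BrafKE/+ (n = 4) in red, and black bars for the mean and SD of each group on axes that start at 0. The mutant values of Ndufa9 (1816 to 1899) lie above the control values (1615 to 1727), those of Ndufs1 lie below, and the ranges of Sdhc overlap.

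Paired isoforms of complex IV and the 3 genes for the c subunit of complex V were compared as shares of signal per kb, which take out changes common to a family. With canonical lengths 3 of the 8 shares compared had an exact two-sided permutation p under 0.05, and none after Benjamini-Hochberg adjustment over the 8. These permutations took no account of the series. In the limma fit without the series term, 4826 of all 16196 genes had an unadjusted p under 0.05. How often shares of other gene families reach such a p was not tested. In Nestin;BrafKE/+ libraries Cox4i2 made up 0.341% ± 0.025 (SD, n = 4) of its pair with Cox4i1, against 0.261% ± 0.042 (SD, n = 5) in Braf+/+ (exact permutation p = 0.0238, adjusted 0.0952). The ranges just overlapped, from 0.314% to 0.370% and from 0.207% to 0.316%. Atp5g1, Atp5g2 and Atp5g3 encode the same mature protein with different import sequences. Atp5g2 took 18.8% ± 0.46 of their sum in Nestin;BrafKE/+ and 17.2% ± 0.81 in Braf+/+ libraries (exact permutation p = 0.0238, adjusted 0.0952). Atp5g1 took 42.6% ± 0.90 and 44.0% ± 0.64 (p = 0.0397, adjusted 0.106 by the same exact test). The share of Atp5g3 was 38.7% and 38.8%. The order of these 3 genes rests on the length used, since with the longest transcript Atp5g3 took 80.8% and 81.0% and Atp5g1 11.7% and 12.1%, and with merged exons Atp5g3 took 69.3% and 69.4% and Atp5g1 20.7% and 21.4%. For Atp5g1 the exact permutation p was then 0.103 and 0.0794, for Atp5g2 it was 0.0317 with either length, and for Cox4i2 it stayed at 0.0238. For Cox6a2, Cox6b2, Cox7a1 and Ndufa4l2 within their pairs the exact permutation p ran from 0.341 to 0.516. The heart and muscle forms Cox6a2 and Cox7a1 had log2 fold changes of -0.012 (SE 0.20) and -0.049 (SE 0.31), and Cox6b2, known from testis, -0.066 (SE 0.28), so their intervals were wide. Cox6a1 had 0.085 (SE 0.08), Cox7a2l, a factor of respiratory supercomplexes, 0.063 (SE 0.06), and Cox8a 0.012 (SE 0.09).

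Complex V had the median nearest to 0, with members on both sides, while the median size of the log2 fold change regardless of sign was 0.057 there and 0.044 in complex III. The 5 genes of its catalytic F1 part had log2 fold changes from 0.007 to 0.069. Atp5b was at 19568, 19520.1, 20560.1 and 19500.2 in Nestin;BrafKE/+ and at 17758, 20550.2, 20678, 19082 and 19852 in Braf+/+ libraries. The control range enclosed the mutant range, and the log2 fold change was 0.016 (SE 0.058) with a 95% interval from -0.11 to 0.14. Atp5a1, the α subunit, ran from 14756 to 15678 and from 14752 to 15996, with 0.024 (SE 0.047) and an interval from -0.081 to 0.13. Of the 4 peripheral stalk genes 2 were above 0, with a median of 0.026. The c subunit genes had -0.056 for Atp5g1, 0.12 for Atp5g2 and -0.012 for Atp5g3. Among 5 accessory genes of the membrane part, Atp5k (subunit e) had the highest value of the complex, 0.12 (SE 0.10, limma adjusted p = 0.562), and Atp5l (subunit g) the lowest, -0.081 (SE 0.065, adjusted p = 0.548). Both proteins take part in the dimerisation of the enzyme.

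Across libraries the complexes moved together. For each library the log2 deviation of every gene from its own 9-library mean was averaged within a set, which gives the level of that set. Over the 83 genes it was 0.026, 0.036, 0.079 and 0.003 in Nestin;BrafKE/+ and -0.099, -0.043, 0.063, -0.070 and 0.004 in Braf+/+ libraries. The groups overlapped through Braf+/+ replicates 3 and 5. Braf+/+ replicate 3 was the highest control library for each of the 5 complexes, and Braf+/+ replicate 1 was the lowest library for complexes I, III, IV and V. The difference between genotypes was 0.052 in series A, 0.13 in series B and -0.001 in series C. It had the same sign in all 3 series for 28 of 83 genes, 22 higher and 6 lower.

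**Figure D4:**
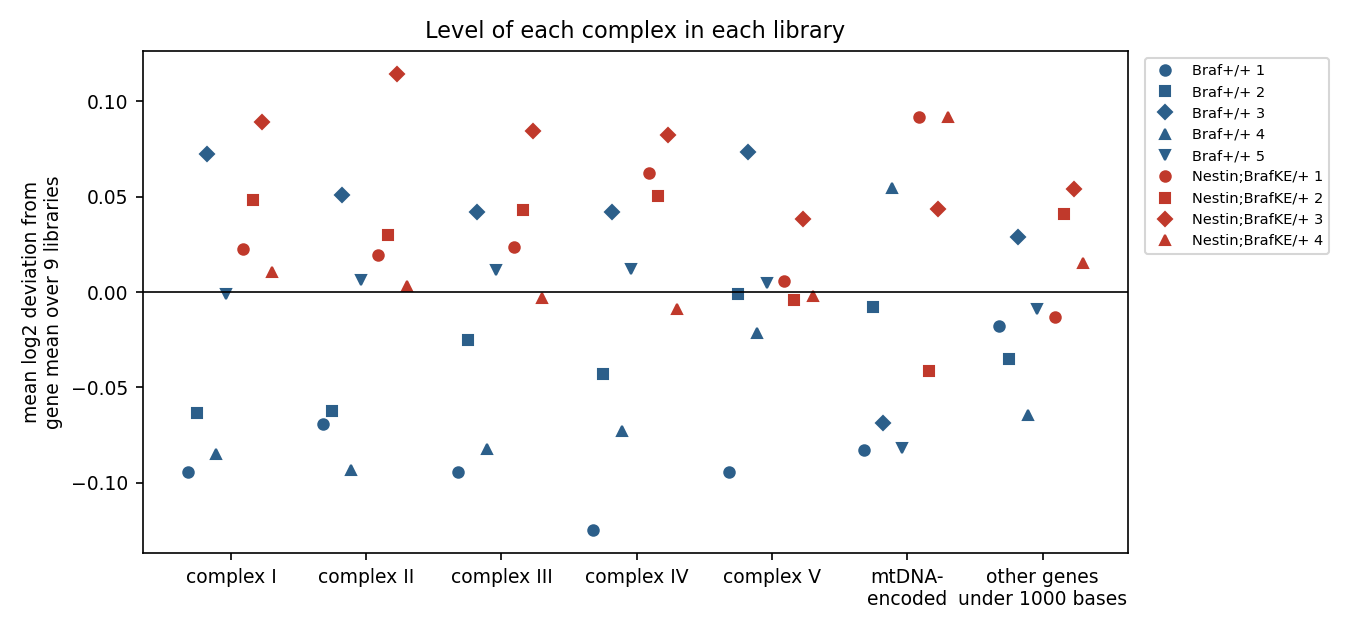
Mean log2 deviation from each gene's mean over 9 libraries (vertical axis) for complexes I to V, for the subunits encoded by mitochondrial DNA and for other genes with short transcripts, with one symbol per library, Braf+/+ in blue and Nestin;BrafKE/+ in red. Within each complex Braf+/+ replicate 3 lies among the mutant libraries or above them and Braf+/+ replicate 1 lies low, so the genotypes overlap.

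The subunit transcripts are short, and transcript length moved with genotype across the table. The canonical transcripts had a median of 990 bases, against 3317.5 bases for all genes tested with a length. Among other genes the median log2 fold change was 0.057 for the 1088 under 1000 bases and -0.042 for the 4068 of 5000 bases or more. The short genes that are not subunits had library levels from -0.013 to 0.054 in Nestin;BrafKE/+ and from -0.064 to 0.029 in Braf+/+ libraries. After the median deviation of other genes of similar length was subtracted in each library, an alternative added after the data were seen, the median of the 83 genes was 0.019, that of complex I 0.044 and that of complex V -0.018. Under this centring 0 of the 83 genes passed. The part of transcript length in the values above was not tested further.

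**Figure D5:**
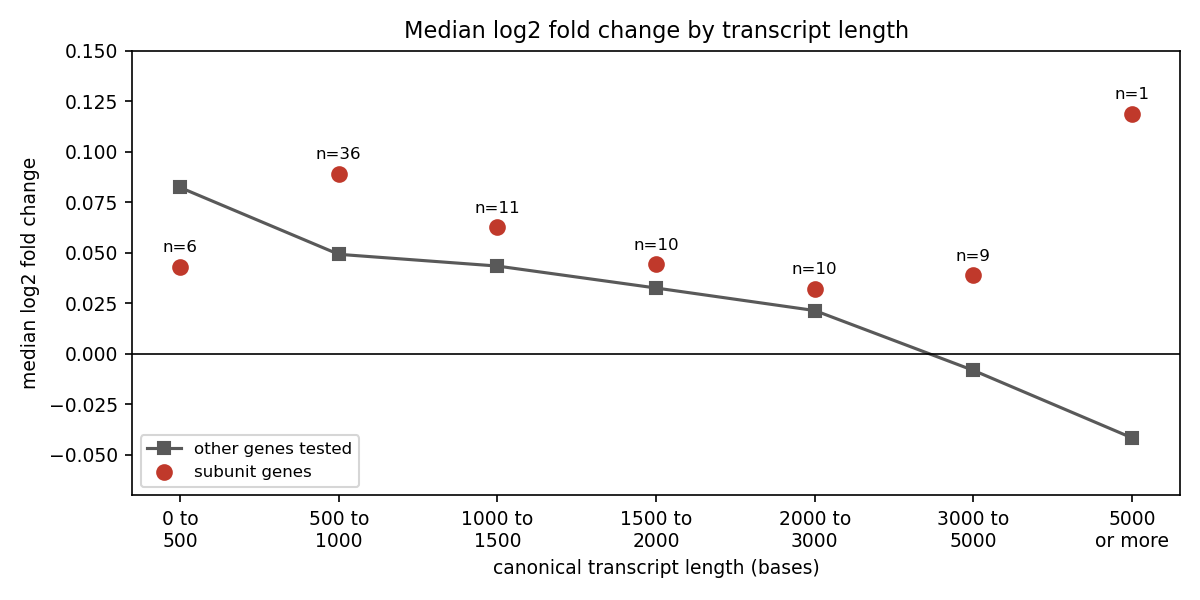
Median log2 fold change of Nestin;BrafKE/+ over Braf+/+ (vertical axis) by class of canonical transcript length in bases, with grey squares for other genes tested and red points for the subunit genes, whose number is given at each point. Other genes go from 0.082 under 500 bases to -0.042 at 5000 bases or more, and the subunit genes lie above this line in every class drawn except the one under 500 bases.

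The partners of these genes were read in the same fit. There 2.88% of all genes passed and 18.5% had an unadjusted p under 0.05. Of the 13 subunits encoded by mitochondrial DNA, 0 passed limma's test and 2 (15.4%) had an unadjusted p under 0.05. The median log2 fold change of the 13 was 0.060. The nearest was mt-Nd4l of complex I, chosen after its values were seen, at 3143, 2242, 2651 and 2087 in Nestin;BrafKE/+ and 1497, 1704, 1551, 1796 and 2048 in Braf+/+ libraries (log2 fold change 0.55, SE 0.14, limma adjusted p = 0.0580). Its groups did not overlap. The signal of mt-Co1, by contrast, corresponded to the whole number 491938 in all 9 libraries, so that this gene carries no information on genotype here. Whole numbers also repeated between libraries for other subunits of this list. Over the 9 libraries mt-Nd2, mt-Nd4 and mt-Cytb had 5 distinct whole numbers each, and mt-Nd5 had 6. The median and the summed signal of the list include these genes. Of 47 assembly factors of complexes I to V 0 passed by limma, 3 (6.38%) had an unadjusted p under 0.05, and the median was 0.023. The assembly factors of complex III had library levels from 0.063 to 0.11 in Nestin;BrafKE/+ and from -0.11 to -0.033 in Braf+/+ libraries. These means do not overlap, but the medians over the same 6 genes do, from -0.0027 to 0.068 and from -0.13 to 0.0048. Of the 6 Lyrm7, a chaperone of the Rieske protein, had the highest value at 0.65 (SE 0.18, adjusted p = 0.0801 by limma). Its values were 369, 250.3, 362 and 386 against 237, 219, 171, 268 and 187, and Nestin;BrafKE/+ replicate 2 lay below Braf+/+ replicate 4. Uqcc1 and Ttc19 had -0.035 and -0.093.

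In the tricarboxylic acid cycle, which feeds complexes I and II, 0 of 14 genes passed by limma, and the median was 0.040. An unadjusted p under 0.05 was found for 3 genes, or 21.4% against 18.5% of all genes. The groups were apart for Idh3b at 0.19 (SE 0.05, limma adjusted p = 0.0827) and for Idh3g at 0.13 (SE 0.05, adjusted p = 0.214). Both encode subunits of isocitrate dehydrogenase, and they were named after their values were seen. Of 15 regulators of mitochondrial biogenesis and mitochondrial DNA maintenance 0 passed by limma, and 1 (6.67%) had an unadjusted p under 0.05. Of the 15, 12 were below 0, with a median of -0.076. Ppargc1a, the coactivator PGC-1α, had -0.060 (SE 0.064), Nrf1 -0.012 (SE 0.099) and Tfam, which packages mitochondrial DNA, -0.15 (SE 0.08). The groups were apart for 2 of the 15 regulators, or 13.3% against 15.7% of all genes, both lower. These were Yy1 at -0.14 (SE 0.05, limma adjusted p = 0.193) and Polg2 at -0.35 (SE 0.19, adjusted p = 0.375). Both were named after their values were seen. The 78 mitochondrial ribosomal protein genes, which are nuclear too, had 0 limma calls, 3 (3.85%) unadjusted p under 0.05 and a median of 0.039. For the 6 electron carriers and subunits outside the naming rule, such as Cycs and Cyc1, the limma calls and the unadjusted p under 0.05 both numbered 0, and the median was 0.040.

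Markers of several cell types differed between the genotypes. Over all genes tested, 2.88% passed and 18.5% had an unadjusted p under 0.05. Of 10 astrocyte markers 3 passed (Gfap, Aldoc and S100b, log2 fold changes from 0.35 to 0.68), and the list's level ran from 0.091 to 0.17 in Nestin;BrafKE/+ and from -0.13 to -0.063 in Braf+/+ libraries. Of 10 oligodendrocyte markers 4 passed (Mobp, Mag, Cldn11 and Mog, from 0.39 to 0.58), with levels from 0.099 to 0.27 and from -0.32 to 0.020. Neurod2 of 8 excitatory neuron markers was lower (-0.53), with list levels from -0.047 to 0.037 and from -0.13 to 0.072. Among 10 genes that mark hippocampal regions Wfs1 and Fibcd1 were higher and Lct and Dsp lower (from -0.78 to 0.61), with levels from -0.079 to 0.088 and from -0.027 to 0.069. By limma 0 passed among 8 microglial, 8 inhibitory neuron, 8 endothelial, 5 blood and 10 choroid plexus markers, with 2, 2, 0, 4 and 4 at an unadjusted p under 0.05. Levels in Nestin;BrafKE/+ and Braf+/+ libraries ran from -0.015 to 0.14 and from -0.15 to 0.030 for microglia, and from -0.0088 to 0.14 and from -0.10 to 0.022 for inhibitory neurons. They ran from -0.061 to 0.085 and from -0.16 to 0.19 for endothelium, and from -0.24 to 0.71 and from -0.22 to -0.086 for blood. Choroid plexus genes, which mark tissue next to the hippocampus, made up 0.026% to 0.20% of a library's total in Nestin;BrafKE/+ and 0.076% to 2.13% in Braf+/+ libraries, with Braf+/+ replicates 2 and 4 highest. No marker was at 0 in any library. The part of these differences in the subunit values was not tested.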

How the data were processed

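Stranded mRNA libraries from mouse hippocampus were used, 4 from Nestin;BrafKE/+ and 5 from Braf+/+ mice. The authors used Trim Galore, STAR (GRCm39) and Salmon, then adjusted for unnamed batches and applied the scaling of DESeq2. What they deposited is a signal in normalised counts, 1 value per gene and library. Each library's values are whole multiples of a step from 0.993 to 1.004. These whole numbers are not sequenced reads, so depth is unknown, and the spread between libraries sets the precision.

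The test was limma 3.58.1 under R 4.3.3 on log2(value + 1) for genes with a mean of at least 10. Genotype and series were terms, with a mean-variance trend, two-sided p-values and Benjamini-Hochberg adjustment over all genes tested (threshold 0.05). Fold changes are on that scale, which understates those of low genes. Intervals are limma's 95% intervals. Isoform shares were compared with exact permutation tests. Lengths, positions and overlaps came from Gencode vM39. The steps were tested on simulated data. Alternatives were other pseudocounts, filters, scalings, series terms, weights, a replicate block, length centring and leaving out each library.

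The subunit genes, lists and alternatives were chosen with earlier results of these data known. Named genes were the extremes of each complex with a mean of at least 50, the 5 lowest p, the 5 highest means, isoform families and Ndufb2. Other genes were named after their values were seen. Some genes are counted in the totals and medians but not reported here. Plots were made in matplotlib 3.10.9 from tables written with pandas 2.3.3 (Python 3.11.15).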

Additional observations from a re-analysis of the deposited data

Results flagged for a closer look

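In 3 of 80 groups examined, each the values of 1 named gene in 1 genotype, a single library stood far from the others by Dixon's test at the 95% level, which chance alone flags in about 1 of 20 groups. Atp5a1 was at 15996 in Braf+/+ replicate 3, and the other 4 controls ran from 14752 to 14904. Atp5b was at 20560.1 in Nestin;BrafKE/+ replicate 3, with the other mutant libraries between 19500.2 and 19568. Cox7b was at 2254 in Nestin;BrafKE/+ replicate 4, against 2445 to 2449 in the rest of its group.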

How the results depend on the processing

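Of the 83 subunit genes, 0 passed in the fit reported and in each alternative except 2. Without the series term 4 passed, and with a replicate block in place of the series 4 passed (Uqcr11, Cox4i1, Cox6b1 and Sdhc), or 4.82% of the 83 against 8.67% of all genes. The correlations of same-numbered libraries ran from -0.39 to 0.41, so the numbers do not pair the animals. Leaving out each library in turn gave 0 calls every time. The median log2 fold change then ran from 0.019 to 0.095 over all subunit genes, from 0.040 to 0.12 for complex I, from 0.018 to 0.10 for complex II, from 0.013 to 0.099 for complex III, from 0.051 to 0.13 for complex IV and from -0.010 to 0.031 for complex V. The lowest values for all subunit genes and for complexes I, II, III and V came without Braf+/+ replicate 4. Scaled to mitochondrial ribosomal protein genes, the complex V median was -0.019 that of complex III 0.0084 and that of all subunit genes 0.030, and with length classes centred that of complex I was 0.044.

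Signs of single genes near 0 turned. Scaling to mitochondrial ribosomal protein genes gave -0.012 for Atp5a1, -0.019 for Atp5b and -0.024 for Cox8a. With 4 name prefixes in place of the series Atp5b had -0.0035, Cox6a2 0.047 and Cox8a -0.019. Length centring gave -0.018 for Atp5b and -0.049 for Cox8a, and array weights -0.0024 for Cox8a. The replicate block gave 0.033 for Cox7a1 and 0.0046 for Ndufa4. Without one library, values ran from -0.012 to 0.031 for Atp5b, -0.031 to 0.015 for Atp5g3, -0.010 to 0.21 for Atp5k, -0.048 to 0.18 for Cox6a1, -0.11 to 0.19 for Cox6a2, -0.40 to 0.22 for Cox6b2, -0.37 to 0.19 for Cox7a1, -0.11 to 0.12 for Cox8a, -0.033 to 0.017 for Ndufa4, -0.056 to 0.26 for Ndufa4l2, -0.058 to 0.040 for Ndufb2 and -0.14 to 0.013 for Sdhd. The cause was not tested. In the lists of partners, calls appeared without the series term, where 14.0% of all genes passed (1 complex III assembly factor, 2 complex IV assembly factors, 2 mitochondrial DNA subunits, 3 tricarboxylic acid cycle genes, 1 biogenesis regulator and 3 mitochondrial ribosomal proteins). One assembly factor of complex III passed without Nestin;BrafKE/+ replicate 2, and one mitochondrial DNA subunit without either library of series C. A count model was not run, since the values are batch-adjusted and not reads.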
